A study of Mus musculus with 483 samples.

Results

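Clusters 6 and 7 are described here as blood cells, and a few cells inside and outside them depart from this, as given below. They belong to single mouse cells sorted from the aorta-gonad-mesonephros region, the part of the embryo in which hematopoietic stem cells first arise. The submitters' labels assign every cell to 1 of 7 clusters made by ICGS, a method that groups cells by guide genes, and the cells described here are those labelled 6 or 7. They number 53 of 483, with 33 cells in cluster 6 (14 Ctrl and 19 aDll4-treated) and 20 cells in cluster 7 (8 Ctrl and 12 aDll4-treated). All cells were sorted as CD31+kit+CD45-, that is, positive for an endothelial adhesion molecule and for the stem cell factor receptor, and negative for the pan-leukocyte marker CD45. Ctrl and aDll4-treated are the only 2 conditions, and what aDll4 stands for is not explained there. The sources used here give no strain, embryonic stage, dose or duration, and no label names an embryo. The sorting surface proteins and the tissue are the same in both conditions. Each condition therefore counts as 1 sample, no test between conditions or clusters was run, and all intervals below cover counting error only.

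Blood cells of the embryonic aorta come from hemogenic endothelium. A few endothelial cells of the vessel wall lose junction and vascular genes, switch on factors such as Runx1, Gfi1b and Spi1, and round up into clusters attached to the wall. Notch signalling, for which Dll4 is an endothelial ligand, is active in arterial endothelium and has to be turned down for blood fate to proceed. Erythroid cells use Gata1 with Klf1, megakaryocytes use Gata1 with Runx1 and Nfe2, and myeloid cells use Spi1, so these factors mark the branches that a young blood cell can take.

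Levels of 4 marker genes are given for each cluster. The submitters built the clusters on these same cells, so the levels describe the label and do not test it. Rac2 is a GTPase of blood cells, Coro1a a leukocyte actin regulator, Itga2b the integrin CD41 of early blood cells and platelets, and Pf4 a chemokine of platelet granules. On build mm10 the genes lie at chr15:78559167-78572783 (Rac2, ENSMUSG00000033220), chr7:126699773-126707787 (Coro1a, ENSMUSG00000030707), chr11:102453297-102470122 (Itga2b, ENSMUSG00000034664) and chr5:90772435-90773383 (Pf4, ENSMUSG00000029373). At least 2 of them reached 10 reads in 30 of 33 cells of cluster 6 and in 20 of 20 cells of cluster 7. The same held for 12 of the 395 cells of clusters 1 to 3, the endothelial clusters, or 3.04%, and for 2 of 35 cells of clusters 4 and 5, which carry mesenchymal transcripts. The lowest, median and highest Rac2 level per cell was 0, 334 and 2060 CPM (reads of the gene scaled to the cell's total reads) in cluster 6 and 0, 262 and 957 CPM in cluster 7. In clusters 1 to 3 the median cell had 0 CPM and the highest 27.2 CPM of Rac2. Coro1a had medians of 98.4 and 373 CPM in clusters 6 and 7, with single cells of clusters 1 to 3 up to 1066 CPM. Rac2 thus marked both clusters alike, Itga2b marked every cell of cluster 7, and Pf4 reached 10 reads in 17 of 20 cells of cluster 7 but in 5 of 33 cells of cluster 6.

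**Figure D1:**
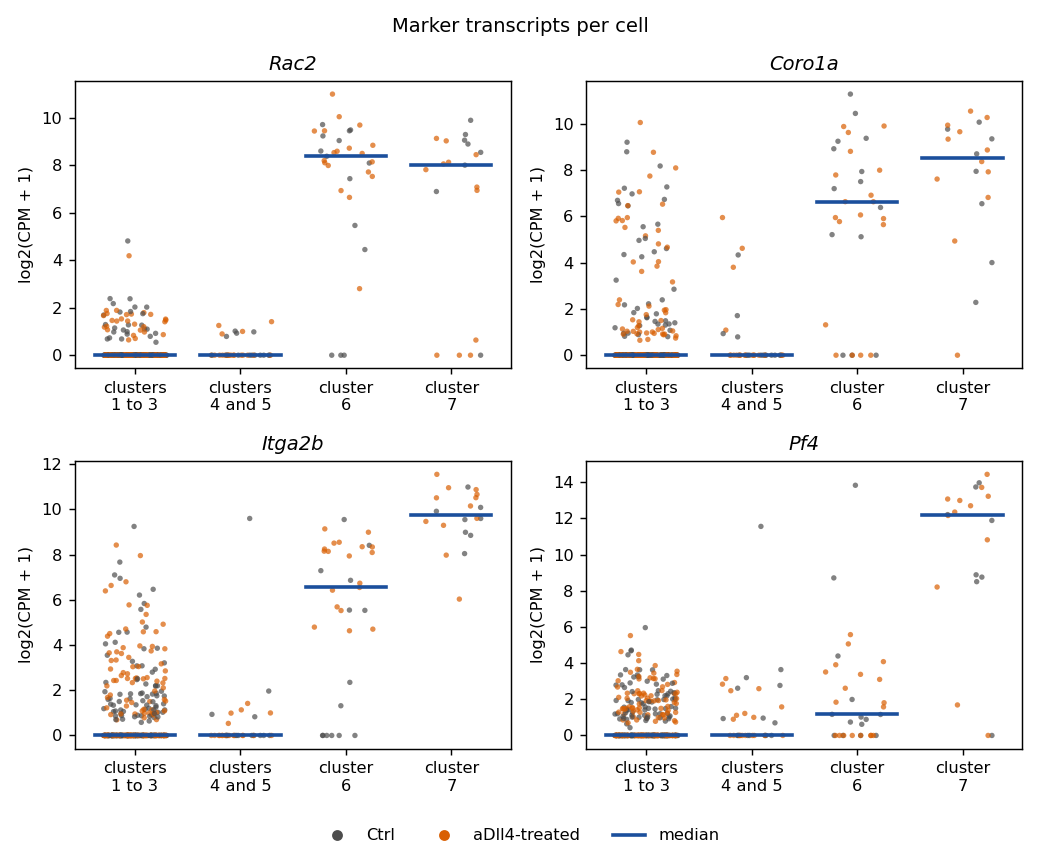
Levels of 4 marker genes per cell on a log2(CPM + 1) axis, with 1 point per cell coloured by condition and a bar at the median, for clusters 1 to 3 (395 cells), clusters 4 and 5 (35), cluster 6 (33) and cluster 7 (20). Rac2 is near 0 outside clusters 6 and 7, and Pf4 has 10 reads in 17 of 20 cells of cluster 7. In cluster 6 it has 14641 CPM in Ctrl cell 11, 418.9 CPM in Ctrl cell 14 and at most 46.7 CPM in the other cells.

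A few cells stood apart from their label. Ctrl cell 12 of cluster 6 had no read of Rac2, Coro1a, Runx1 or Gata1 and carried the germ cell transcripts Dppa3 (849 reads), Tfap2c (249 reads) and Pou5f1 (182.9 CPM), with 417 reads of Kit. Without it, the level of Rac2 in cluster 6 was 485 CPM in place of 475 CPM, and that of Kit 184 CPM in place of 193 CPM. Ctrl cell 11 of cluster 6 had 172122 reads in all, 2520 of Pf4 and none of Rac2, and it supplied 89.4% of the Pf4 reads of cluster 6. Ctrl cell 8 of cluster 6 had no read of Rac2 or Coro1a but 344 of Gata1 and 449 of Klf1, an erythroid profile. Reads assigned to genes ranged from 149804 to 1964636 per cell in cluster 6 (median 1112351) and from 371302 to 1795966 in cluster 7 (median 1018465), against a median of 849476 in clusters 1 to 3. After each cell was thinned to 100000 reads, medians of 6545, 6279.5 and 5788 genes had a read. The median mitochondrial share was 7.95% in cluster 6, 7.36% in cluster 7 and 8.25% in clusters 1 to 3.

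Clusters 6 and 7 together were first set against clusters 1 to 3, to show what separates these blood cells from the endothelium sorted with them. A gene was compared where at least 10% of the cells of either group had a read of it. Its value is the log2 ratio of CPM summed over cells, with 1 CPM added to both, and it counted as higher or lower at an absolute value of 1 or more with the same direction in the mean of log2(CPM + 1). Of 14080 genes, 13.6% (1916) were higher in clusters 6 and 7 and 20.9% (2945) were lower, and the median over all of them was 0.071. By the mean of log2(CPM + 1) alone, 3292 were higher and 1865 lower, so that the share of calls that were higher went from 39.4% to 63.8%. The submitters built the clusters on these same cells, so the differences describe the clusters and test nothing.

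Genes that blood cells share across lineages were mostly higher. Of 20 compared genes of a pan-hematopoietic list, 18 were higher and 1 was lower, beside 13.6% and 20.9% of all genes. The median of the list was 3.38. Fermt3, the kindlin that activates integrins in blood cells, stood at 605 CPM in cluster 6 and 1660 CPM in cluster 7 against 1.95 CPM in clusters 1 to 3, a log2 ratio of 8.41 for both clusters together, and it reached 10 reads in 31 of 33 and 20 of 20 cells. Plek, a substrate of protein kinase C known from platelets, had a log2 ratio of 8.77, and Bin2, a membrane-shaping protein of leukocytes, 8.76. Tspan32, a blood cell tetraspanin, Dapp1, an adaptor of phosphoinositide signalling, and Adgrg1, an adhesion receptor of stem cells, had log2 ratios of 7.83, 5.30 and 3.90. Rgs10, which shortens G protein signals, was at 6.10, and Mfsd2b, a sphingosine 1-phosphate exporter of red cells and platelets, at 6.87. The gene of the list that was lower was Lcp1 (-2.03). Summed over the list, all 20 cells of cluster 7 and 14 of 33 cells of cluster 6 lay above the highest cell of clusters 1 to 3 (3600 CPM). CD45 itself, encoded by Ptprc, was at 0.56 CPM in cluster 6, where 1 cell had 10 reads or more, and had no read in cluster 7, which allows up to 0.147 CPM. That is the marker the sort selected against.

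Factors of the switch from endothelium to blood were mostly higher. Of 16 compared transition factors 12 were higher and 1 was lower, beside 13.6% and 20.9% of all genes. Their median was 2.03. Gfi1b, a repressor that silences endothelial genes, had lowest, median and highest levels of 0, 137.2 and 1169 CPM in cluster 6 and 0, 265 and 2149 CPM in cluster 7, and no cell of clusters 1 to 3 exceeded 7.00 CPM. Its relative Gfi1 had no read in any cell of clusters 6 and 7 and 3.60 CPM in clusters 1 to 3. Only 8 of the 395 cells of clusters 1 to 3 had 10 Gfi1 reads. Runx1, the master factor of the transition, had medians of 72.7 and 187.5 CPM in clusters 6 and 7, and 24 of 33 and 19 of 20 cells had 10 reads or more. Its log2 ratio was 3.96, and 23 cells of clusters 1 to 3 had 10 reads too, the highest at 515 CPM. The scaffold genes Lmo2, Lyl1 and Tal1, shared by endothelium and blood, had log2 ratios of 1.99, 2.06 and 2.00. Gata2, which acts in both, was at 109 and 81.4 CPM in clusters 6 and 7 and at 40.1 CPM in clusters 1 to 3. Cbfb, the partner of Runx1, was the lower one (-1.73).

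Stem cell genes had no single direction. Of 15 compared, 4 were higher (Meis1 and Angpt1 among them) and 6 were lower, beside 13.6% and 20.9% of all genes. The median was -0.42, beside 0.071 for all genes. Meis1, a homeobox factor of stem cells and megakaryocytes, had medians of 44.7 CPM in cluster 6 and 189.6 CPM in cluster 7, with 22 and 18 cells at 10 reads or more. Mecom, a stem cell regulator that arterial endothelium also transcribes, was at 0.71 and 6.35 CPM against 54.6 CPM in clusters 1 to 3, and in each of clusters 6 and 7 a single cell supplied most of its reads. Procr, a surface receptor of stem cells and endothelium, was at 1.37 and 0.098 CPM against 47.5 CPM. Hoxa9 reached 10 reads in 4 cells of cluster 6 and in no cell of cluster 7. Mycn, a MYC family gene, was close to the endothelial level, at 69.4, 107 and 113 CPM in clusters 6, 7 and 1 to 3.

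Lineage genes were then compared in the same way, and of the lineage lists the erythroid and megakaryocyte ones had the highest medians. The counts below stand beside 13.6% of all genes that were higher and 20.9% that were lower. Of 18 compared erythroid genes 17 were higher (median 4.38), and 24 of 33 cells of cluster 6 and 14 of 20 of cluster 7 had a sum over the list above every cell of clusters 1 to 3. The other, Aqp1, a water channel that endothelium shares, had a log2 ratio of -1.32 in summed CPM without counting as lower. Among 27 megakaryocyte and platelet genes 22 were higher (median 5.67) and 1, Gng11, was lower. Vwf, Cd9, F2r and Clec1b of that list did not differ by the fold, and all 4 were also read in clusters 1 to 3, Clec1b at 276 CPM. Of 22 granulocyte and monocyte genes 7 could be compared, and 6 of those were higher. The median cell of clusters 1 to 3 had 0 CPM over this list. A gene enters through the group that reads it, so the filter in part fixed this count. Gata1, the factor shared by the red cell and platelet branches, reached 10 reads in 26 of 33 and 20 of 20 cells, with medians of 268 and 494 CPM, while 1 of 395 cells of clusters 1 to 3 did so. Cited4, a transcriptional co-activator, had a log2 ratio of 7.61 beside 8.23 for Gata1. Of the other blood lineages, none of 9 mast cell genes could be compared, 5 of 17 lymphoid genes could and all 5 were lower, since Lck, Tcf7, Gimap6, Ebf1 and Notch3 were read in the endothelial clusters. Of 14 macrophage genes, 9 had no read in cluster 6 and 10 had none in cluster 7, and of the 3 compared 1 was higher and 1 lower. The list summed to 615 CPM in cluster 6, 217 CPM in cluster 7 and 181 CPM in clusters 1 to 3. Apoe, an apolipoprotein that many cell types transcribe, made up 609, 213 and 172 CPM of these.

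Cluster 6 and cluster 7 were next compared with each other. Of 14582 genes, 13.6% (1979) were higher in cluster 6 and 11.5% (1676) were lower, and the median over all was 0.11. With TMM factors 1670 were higher and 1953 lower, and with median-of-ratios factors 1689 and 1924, so the larger count changed sides. The median over all became -0.014 and -0.0050. These factors lowered a log2 ratio by at most 0.16 and 0.15, and by less at low levels, since 1 CPM was added after scaling. The lists of lineage genes are given first. Their members were chosen with earlier results of these data known, and the submitters built the clusters on these cells. The counts therefore describe the clusters and test nothing. A list outside lineage, MYC and ribosome biogenesis, divided as well, as given below. Of 27 megakaryocyte and platelet genes none was higher in cluster 6 and 26 were lower, with a median of -4.26. Of 18 erythroid genes 10 were higher in cluster 6 and none was lower (median 1.43), and of 7 globin genes 6 were higher and none lower (median 1.88), although Hba-a1 was at -0.26 in the library block below 20000 and Hbb-bs at -0.36 in the block above 22000. Granulocyte and monocyte genes divided, with 5 higher and 3 lower of 8. Of the 8, 3 had no read in the lower cluster, so they entered only through the higher cluster. In the pan-hematopoietic list 6 were higher and 4 lower of 20 (median -0.35), so the general blood genes had no single direction between the clusters.

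**Figure D2:**
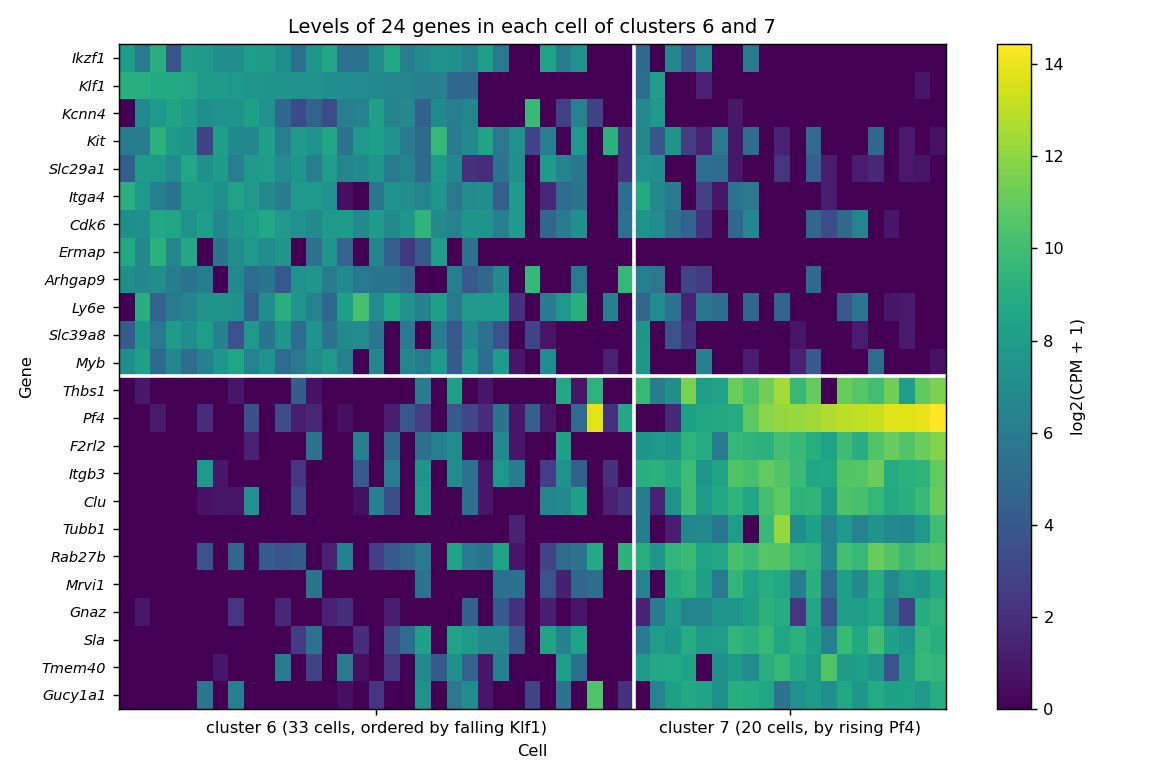
Levels of the 12 genes highest in cluster 6 (top) and the 12 highest in cluster 7 (bottom) by the naming rule, as log2(CPM + 1) in each cell. Cells of cluster 6 run from high to no Klf1, and cells of cluster 7 from no to high Pf4. Itgb3, F2rl2 and Rab27b are present in all cells of cluster 7, those without Pf4 included, and Klf1 is absent from 10 cells of cluster 6.

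The promoters of 2 genes that were lower in cluster 6 than in cluster 7 and of 2 that were higher are shown because each carries a GATA motif, the sequence that Gata1 and Gata2 bind, with other letters around it. Sequences are from RefSeq on build GRCm38.p6, 250 bases before to 50 bases after the gene's start, read 5′ to 3′ along the gene's own strand, with the GATA motif in capitals. Pf4 is at chr5:90772185-90772484 (plus strand), F2rl2 at chr13:95696670-95696969 (plus strand), Klf1 at chr8:84901732-84902031 (plus strand) and Rhag at chr17:40810899-40811198 (plus strand).
Pf4: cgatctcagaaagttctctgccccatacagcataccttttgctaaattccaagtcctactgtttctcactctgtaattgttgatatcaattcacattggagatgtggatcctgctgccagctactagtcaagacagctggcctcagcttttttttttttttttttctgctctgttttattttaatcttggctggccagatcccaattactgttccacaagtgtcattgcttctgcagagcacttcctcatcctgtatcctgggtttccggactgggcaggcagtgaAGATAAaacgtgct
F2rl2: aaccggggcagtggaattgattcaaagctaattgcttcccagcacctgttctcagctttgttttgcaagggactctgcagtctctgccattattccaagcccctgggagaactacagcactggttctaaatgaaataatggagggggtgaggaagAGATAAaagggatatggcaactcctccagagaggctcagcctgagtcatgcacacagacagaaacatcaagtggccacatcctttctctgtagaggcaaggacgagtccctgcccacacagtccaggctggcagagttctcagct
Klf1: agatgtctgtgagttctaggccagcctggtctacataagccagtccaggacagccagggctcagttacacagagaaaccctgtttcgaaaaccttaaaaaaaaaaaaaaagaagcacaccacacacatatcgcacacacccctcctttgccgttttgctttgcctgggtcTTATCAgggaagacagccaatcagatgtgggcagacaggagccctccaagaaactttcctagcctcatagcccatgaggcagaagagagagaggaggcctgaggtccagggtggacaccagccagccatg
Rhag: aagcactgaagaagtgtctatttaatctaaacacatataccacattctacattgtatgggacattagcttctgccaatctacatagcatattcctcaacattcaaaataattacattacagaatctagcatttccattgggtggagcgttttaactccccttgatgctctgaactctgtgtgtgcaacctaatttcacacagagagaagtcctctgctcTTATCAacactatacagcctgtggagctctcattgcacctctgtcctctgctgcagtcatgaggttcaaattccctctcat
The motif starts 36 bases after the gene's start in Pf4, and 95 bases before it in F2rl2, 80 in Klf1 and 31 in Rhag. In Klf1 and Rhag it lies on the opposite strand, so the capitals there are its reverse complement. Both strands were searched. GATA stood for AGATAA, and also for AGATAG, and also for TGATAA, and also for TGATAG. ETS, a family that includes Fli1 and Erg, stood for CCGGAA, and also for AGGAAG, and also for CGGAAG, which can overlap the first. RUNX stood for TGTGGT, and also for TGCGGT. An ETS motif of F2rl2 directly precedes its GATA motif without sharing a base, Pf4 held 2 ETS motifs, and Klf1 and Rhag held a RUNX motif 133 and 212 bases before the start. Of the 12 genes named as lower in cluster 6, promoters of 6 were matched and 4 held a GATA motif, and of the 12 named as higher 10 were matched and 2 held one. Over all 27025 genes with a promoter in the table the share with a GATA motif was 30.2%, with ETS 49.7% and with RUNX 22.5%. Rhag was not among those 12 and was chosen after its values were seen. A match of letters is a description and shows no binding.

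Cluster 7 carried a broad set of megakaryocyte and platelet transcripts. Summed over the 27 genes, the lowest, median and highest cell stood at 4699, 14458 and 60658 CPM in cluster 7, at 136, 768.5 and 23599.5 CPM in cluster 6, and at 7.35, 1509 and 4319 CPM in clusters 1 to 3. Every cell of cluster 7 lay above the highest cell of clusters 1 to 3, and 3 cells of cluster 6 did. Itgb3, which pairs with Itga2b to form the fibrinogen receptor, had 190.2, 800 and 2299 CPM in the lowest, median and highest cell of cluster 7, and its median in cluster 6 was 0 CPM. Itga2b stood at 64.4, 871 and 3000 CPM in cluster 7 and at 0, 92.5 and 749 CPM in cluster 6, so these ranges overlap. F2rl2, a thrombin receptor of platelets, reached 10 reads in 20 of 20 cells of cluster 7 and in 8 of 33 cells of cluster 6, with a log2 ratio of -5.26. Rab27b, which moves platelet granules, had 10 reads in 20 of 20 and 17 of 33 cells, and Gnaz, a G protein subunit of platelets, in 16 and 2. Gp9, a subunit of the von Willebrand factor receptor, had medians of 334 and 0.85 CPM in clusters 7 and 6. Thbs1, the granule protein thrombospondin, had a median of 1457 CPM in cluster 7 and of 0 CPM in cluster 6. The other genes named by the rule were Clu, the secreted chaperone clusterin (-4.54), Mrvi1 (-4.93) and Gucy1a1 (-3.43) of the nitric oxide and cGMP response, the adaptor Sla (-2.61) and the membrane protein Tmem40 (-3.84).

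Genes of mature platelets varied more between the cells of cluster 7. Pf4 had a lowest, median and highest level of 0, 4674 and 22262 CPM. Ppbp, a later platelet chemokine, had 10 reads in 9 cells, all of which had Pf4, and 1 cell supplied 64.6% of its reads. A single Ppbp read was found in cluster 6. Tubb1, the platelet tubulin, had 10 reads in 17 cells with 53.7% of its reads in 1 cell, and 2 reads in cluster 6. Its ratio of cluster 7 over cluster 6 was 7957 with a counting interval of 2202 to 65712. Gp6, the collagen receptor of platelets, had 10 reads in 8 cells of cluster 7 and none in cluster 6, so that it was at least 552-fold higher in cluster 7 against a floor of 3 counts over the cluster. Per kilobase of exon, the levels in cluster 7 ran from Pf4 (9535 CPM per kb) and Ppbp (1301) through F2rl2 (438), Thbs1 (268), Itga2b (211) and Gata1 (197) to Itgb3 (177).

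Kit and Pf4 overlapped in part among the cells of cluster 7. Of its 20 cells 7 had 10 reads of Kit and 17 had 10 reads of Pf4, and 4 had both. The 3 cells with Kit and without Pf4 had 98.2, 13.8 and 179.9 CPM of Kit. The first of them, Ctrl cell 3, also had 248 reads of Myb, a progenitor factor, and 46 of Klf1, together with 978 reads of Itga2b and 702 of Itgb3. Megakaryocyte surface genes were thus read in a cell without any Pf4 read. Across the 20 cells log2(CPM + 1) of Pf4 and Kit had a Pearson r of -0.66 and a Spearman rho of -0.61. For Pf4 and Ppbp the values were 0.57 and 0.68, and for Pf4 and Gata1 -0.45 and -0.66. These cells share the cluster that such genes helped to define, so the values are descriptions.

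The 12 genes named as higher in cluster 6 than in cluster 7 came from several groups. Ikzf1, a lymphoid and myeloid factor, had a log2 ratio of 3.64, with 10 reads in 27 of 33 and 4 of 20 cells and medians of 136.2 and 0 CPM. Myb stood at 103 CPM in cluster 6 and 16.8 CPM in cluster 7 (2.55), Cdk6, a kinase of the G1 phase that is high in progenitors, at 192 and 33.9 CPM (2.47), and Itga4, an integrin of progenitors, at 132 and 43.4 CPM (1.58). Kit was at 193 and 21.7 CPM (3.09), with medians of 110.6 and 1.23 CPM, and the endothelial clusters were higher than both at 289 CPM. Slc29a1, a nucleoside transporter, Slc39a8, a metal transporter, and Kcnn4, the potassium channel of red cells, had log2 ratios of 2.58, 2.61 and 2.15. Arhgap9, a GTPase-activating protein of blood cells, and Ly6e, a small surface protein, were at 2.94 and 3.40. Selplg, the ligand of P-selectin, reached 10 reads in 14 cells of cluster 6 and had none in cluster 7, at least 270-fold higher against the floor of 3 counts. Spn, the sialoglycoprotein CD43 of maturing stem cell precursors, reached 10 reads in 10 of 33 and 2 of 20 cells.

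Erythroid transcripts were present in most cells of cluster 6. Klf1, the factor that drives globin and red cell membrane genes, had 0, 113 and 525 CPM in the lowest, median and highest cell. It had no read in 10 cells and at least 18 reads in the other 23, with none in between. In cluster 7 it reached 10 reads in 2 cells, and 1 of them supplied 87.9% of its reads. All 23 cells with Klf1 had 10 reads of Gata1, of the erythropoietin receptor Epor and of the heme pathway enzyme Blvrb, and 21 had Myb. Red cell membrane genes were read in part of them. Rhag, of the Rh complex, reached 10 reads in 16 cells of cluster 6, 15 of which had Klf1, and had no read in cluster 7, at least 314-fold higher. Ermap, an erythroid membrane protein, did so in 18 cells, all with Klf1, at least 622-fold higher against the same floor. Car1, carbonic anhydrase 1, reached 10 reads in 16 cells, all with Klf1, and in 1 cell of cluster 7. Klf1 and Rhag had a Pearson r of 0.62 and a Spearman rho of 0.68 across the 33 cells. Epor itself was near equal in the clusters, at 101.8 and 79.1 CPM, and Nfe2, which serves both branches, was at 223 and 443 CPM.

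Globin reads were uneven. Hbb-bh1, the embryonic beta globin, had 10 reads in 19 cells of cluster 6 and 5 of cluster 7, with medians of 25.2 and 0 CPM, and its highest cell in cluster 6 reached 3744 CPM. Of the 19 cells 18 had Klf1. Hba-x, the embryonic alpha globin, took 92.2% of its cluster 6 reads from 1 cell. Hbb-y, another embryonic globin, stood at 28.8 CPM in cluster 6, 4.79 CPM in cluster 7 and 72.97 CPM in clusters 1 to 3, where 1 cell reached 14552 CPM. High globin levels therefore occurred outside cluster 6 as well, and the highest sum over the 7 globin genes in clusters 1 to 3 (30062 CPM) exceeded the highest in cluster 6 (5358 CPM). Alas2, the late erythroid heme enzyme, reached 10 reads in 4 cells of cluster 6 and 3 of cluster 7. Near-identical copies limit the values of Hba-a1 with Hba-a2 and Hbb-bs with Hbb-bt, whose reads may be split or dropped.

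Myeloid transcripts were also read in cluster 6, in cells with Klf1 and in cells without it. Spi1, the myeloid factor PU.1, reached 10 reads in 20 of 33 cells, with a median of 20.97 CPM and a highest cell of 549 CPM. In cluster 7 it did so in 10 of 20 cells, with a highest level of 128 CPM. Mpo, the granule enzyme myeloperoxidase, reached 10 reads in 11 cells of cluster 6, all of which had Spi1, and had no read in cluster 7, at least 677-fold higher. Prtn3, proteinase 3, did so in 19 and 4 cells, and Tyrobp, a signalling adaptor of myeloid cells, in 8 and 1. Spi1 reached 10 reads in 14 of the 23 cells with Klf1 and in 6 of the 10 without. Prtn3 did so in 14 and 5, Mpo in 6 and 5 and Tyrobp in 4 and 4. None of these genes was exclusive of Klf1, and Klf1 with Mpo had a Spearman rho of -0.36 and Klf1 with Spi1 of -0.33 over the 33 cells. Fcer1g, an adaptor used by myeloid cells and by platelets, went the other way, with 10 reads in 20 of 20 cells of cluster 7 and 17 of 33 of cluster 6. Lyz2, lysozyme, was also higher in cluster 7, at 115.7 against 24.5 CPM. Summed over the 22 granulocyte and monocyte genes, cluster 6 was at 268 CPM, cluster 7 at 460 CPM and clusters 1 to 3 at 16.6 CPM, while 10 of the genes had no read in cluster 6 and 13 had none in cluster 7. Flt3 and Il7r, receptors of lymphoid-primed progenitors, reached 10 reads in 2 cells and 1 cell of cluster 6. The cell with both, Ctrl cell 9, had 598 reads of Flt3 and 201 of Il7r with 817 of Spi1, 497 of Ikzf1 and none of Klf1.

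The third question was how far endothelial genes were read in clusters 6 and 7. Of 26 pan-endothelial genes 25 were lower than in clusters 1 to 3 and 1, Tal1, was higher, with a median of -5.79. All 15 compared arterial genes were lower (median -5.10), as were 7 of 8 venous genes (median -6.04). Over all genes 20.9% were lower and 13.6% higher. The 12 genes named as lowest included Cldn5, an endothelial tight junction protein (-8.45), Col4a1 and Col4a2 of the basement membrane (-6.70 and -6.70), the receptors Stab1 (-7.59), Adgrf5 (-7.66), Ramp2 (-6.11) and Flt1 (-6.98), the adhesion genes Cdh5 (-5.72) and Ecscr (-5.88), the factors Ets1 (-6.95) and Sox18 (-6.87), and the kinase Plk2 (-6.03). Summed over the 26 genes, the lowest, median and highest cell was at 59.5, 382 and 3901 CPM in cluster 6, at 87.2, 737 and 1382 CPM in cluster 7, and at 265, 14706 and 35571 CPM in clusters 1 to 3. No cell of clusters 6 and 7 reached the median of clusters 1 to 3. Only 8 of 395 endothelial cells fell below the highest cell of cluster 6.

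**Figure D3:**
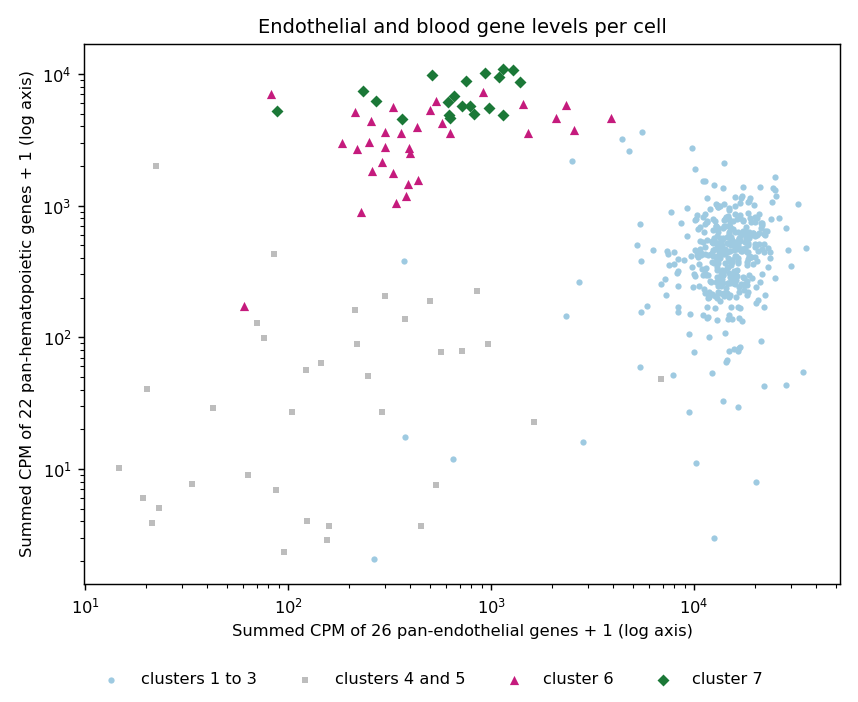
Summed CPM of 26 pan-endothelial genes (x axis) against 22 pan-hematopoietic genes (y axis) in each of the 483 cells, both with 1 CPM added and on log axes. On the blood axis all 20 cells of cluster 7 and 14 of 33 cells of cluster 6 lie above every cell of clusters 1 to 3, and 1 cell of cluster 6 lies below their median of 439 CPM. None exceeds 3901 CPM on the endothelial axis, where the median of clusters 1 to 3 is 14706 CPM.

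Low reads of abundant endothelial genes also occurred in clusters 4 and 5, so the level there is given as a background. It summed to 462 CPM, with a median cell of 144.4 CPM and a highest of 6837 CPM. Cluster 6 exceeded that background in 12 of the 26 genes and cluster 7 in 9. The background is not a floor, since Flt1 was at 90.1 CPM there against 7.22 and 2.74 CPM in clusters 6 and 7. The median gene of the list stood at 2.12% of its level in clusters 1 to 3 in cluster 6 and at 1.15% in cluster 7. A few genes stood out from the list. Egfl7, a secreted vascular protein that hosts a microRNA gene, was at 149.5 and 177 CPM in clusters 6 and 7, with 10 reads in 31 of 33 and 16 of 20 cells, at 1045 CPM in clusters 1 to 3 and at 30.1 CPM in clusters 4 and 5. Tie1, a receptor kinase, was at 128 CPM in cluster 7, where 19 of 20 cells had 10 reads, at 34.98 CPM in cluster 6 and at 9.45 CPM in clusters 4 and 5. Kdr, the VEGF receptor, reached 10 reads in 16 of 20 cells of cluster 7 and in 8 of 33 of cluster 6, at 47.04 and 16.3 CPM, beside 830 CPM in clusters 1 to 3 and 30.5 CPM in clusters 4 and 5. Gja4, an arterial connexin, reached 10 reads in 7 cells of cluster 7 and 1 of cluster 6. Pecam1, which encodes the CD31 of the sort, was at 79.05 and 48.6 CPM against 954 CPM in clusters 1 to 3 and 8.95 CPM in clusters 4 and 5, with 10 reads in 19 of 33 and 8 of 20 cells. Kit was likewise read at 10 or more in 28 of 33 and 7 of 20 cells, so many cells sorted for both proteins, above all in cluster 7, had few reads of the genes.

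In cluster 6 the endothelial cadherin Cdh5 was confined to a few cells. It reached 10 reads in 5 cells of cluster 6 and in none of cluster 7. One was the Ctrl cell 12 with germ cell transcripts (26 reads). The other 4 had 10 reads or more of Rac2, Spi1, Mpo and Runx1 as well, and no read of Klf1. Ctrl cell 4 had 177 reads of Cdh5, 51 of Emcn, 279 of Pecam1, 905 of Mpo and 34 of Runx1. Ctrl cell 9 had 21 of Cdh5, 541 of Emcn, 373 of Pecam1, 200 of Mpo and 439 of Runx1. Treated cell 3 had 21 of Cdh5, 6 of Emcn, 105 of Pecam1, 208 of Mpo and 347 of Runx1. Treated cell 19 had 33 of Cdh5, 135 of Emcn, 4 of Pecam1, 159 of Mpo and 390 of Runx1. Emcn, the surface protein endomucin, reached 10 reads in 3 of these 4 and in no other cell of clusters 6 and 7. Among the 395 cells of clusters 1 to 3, 387 had 10 reads of Cdh5, 9 of these also had Spi1, 5 Mpo and 2 Rac2.

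Without those 5 cells the level of Cdh5 in cluster 6 was 0.68 CPM in place of 8.83 CPM, beside 6.19 CPM in clusters 4 and 5. The stem cell and endothelial sialomucin Cd34 went from 194.0 to 9.93 CPM, the receptor Calcrl from 37.2 to 3.53 CPM, Emcn from 25.2 to 4.17 CPM and Tie1 from 34.98 to 10.5 CPM. Egfl7 was at 160 CPM without them. Only 6 of the 26 genes then exceeded clusters 4 and 5. The 4 of those cells with Mpo reads had 1176402 to 1489212 reads in all, a total that does not show how many cells a well held. A well that held more than 1 cell would give the same mixture, and whether any of the 4 did was not tested.

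Genes of the Notch pathway were low in both clusters. Of 16 compared receptors, ligands and modifiers 12 were lower and 2 higher than in clusters 1 to 3 (median -2.50), and all 6 compared Notch targets were lower (median -4.72). Over all genes 20.9% were lower and 13.6% higher, so the 2 higher ones were not above that share. Dll4 was at 2.76 and 0.73 CPM in clusters 6 and 7 against 335 CPM, with 10 reads in 1 cell of the 53. The receptor Notch1 was at 3.57 and 4.35 CPM against 230 CPM, and the target Hes1, a repressor, at 0.62 and 1.32 CPM against 83.5 CPM. Notch2 was the receptor that was higher over both clusters together (1.31). It was at 24.1 CPM in cluster 6, with 10 reads in 13 cells, and at 2.98 CPM in cluster 7, so cluster 6 carried the difference. Rfng, a glycosyltransferase that modifies Notch, was the other (1.43).

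Cell cycle genes were compared last. Of 23 S phase genes 6 were higher in clusters 6 and 7, beside 13.6% of all genes, and none was lower. Their median was 0.71 beside 0.071 for all genes. Of 24 G2 and M phase genes none passed the fold in either direction (median 0.37). The 6 higher S phase genes were Cdc6, Cdt1, Mcm5, Mcm7, Cdca7 and Ccne1, which act in replication licensing and S phase entry. The sum of the S phase genes had a lowest, median and highest cell of 2626, 5098 and 9032 CPM in cluster 6, of 419, 5005 and 8363 CPM in cluster 7 and of 29.01, 2255 and 9025 CPM in clusters 1 to 3. All 33 cells of cluster 6 and 14 of 20 cells of cluster 7 lay above the median of clusters 1 to 3. For the G2 and M phase genes the values were 715, 5042 and 10680 CPM in cluster 6, 1202, 3732 and 11250 CPM in cluster 7 and 9.09, 3104 and 17163 CPM in clusters 1 to 3, with 30 and 11 cells above that median. At equal depth, a median of 21, 20.5 and 15 of the 23 S phase genes had a read in clusters 6, 7 and 1 to 3. The S phase sum was 2567, 3339 and 3859 CPM in clusters 1, 2 and 3, each below the 5720 CPM of cluster 6 and the 4266 CPM of cluster 7. The G2 and M phase sum was 4932, 3506 and 3663 CPM in clusters 1, 2 and 3 and 5803 CPM in clusters 4 and 5, against 5432 CPM in cluster 6 and 4798 CPM in cluster 7, so cluster 1 was above cluster 7 and clusters 4 and 5 were above cluster 6. Between clusters 6 and 7, 2 of 23 S phase genes (Cdca7 and Ccne1) and 1 of 24 G2 and M phase genes (Kif20a) were higher in cluster 6. None was lower. Of all genes compared 13.6% were higher in cluster 6 and 11.5% lower, so neither list was above the share of all genes.

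**Figure D4:**
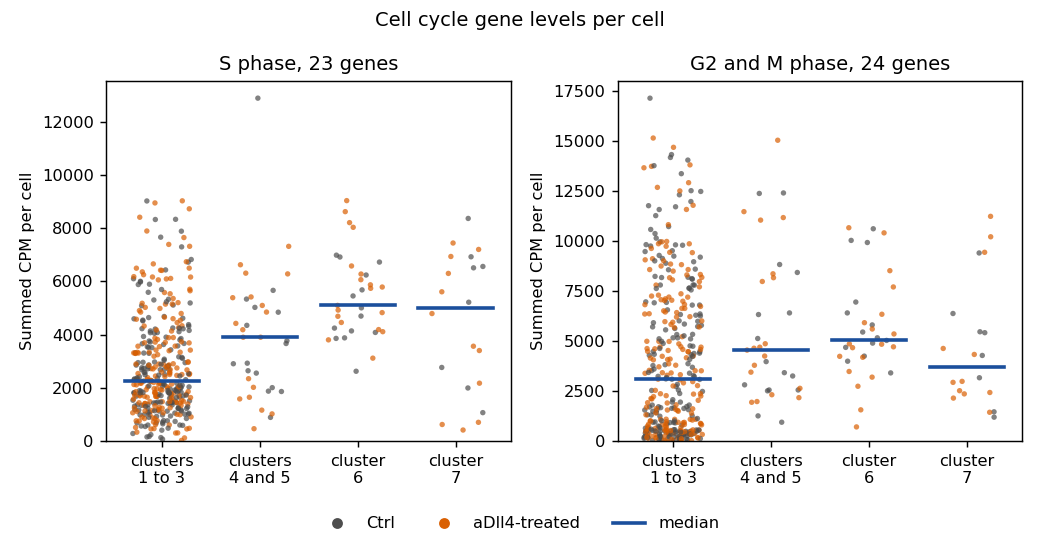
Summed CPM per cell of 23 S phase genes (left) and 24 G2 and M phase genes (right), with 1 point per cell coloured by condition and a bar at the median. The median S phase sum is 5098 CPM in cluster 6 and 5005 CPM in cluster 7 against 2255 CPM in clusters 1 to 3, and the lowest cell of cluster 6 (2626 CPM) lies above that median.

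G1 regulators differed by cluster and gene. Ccnd1, cyclin D1, was at 0.30 and 7.86 CPM in clusters 6 and 7 against 130.2 CPM in clusters 1 to 3. Ccnd3, the cyclin D of blood cells, was at 328 and 571 CPM against 163 CPM. Cdk6 was high in cluster 6, whereas cluster 7 had more of the inhibitor Cdkn2d, at 394 against 70.3 CPM with 10 reads in 20 of 20 cells, and more of Rb1, the retinoblastoma protein (log2 ratio -2.52 for cluster 6 over 7). The inhibitor Cdkn1c was at 16.7 and 2.64 CPM against 185 CPM in the endothelial clusters. Mki67, a marker of dividing cells, was at 410 and 312 CPM against 260 CPM, a log2 ratio of 0.52.

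Growth genes were highest in cluster 6. Of 14 MYC and ribosome biogenesis genes 13 were higher in clusters 6 and 7 than in clusters 1 to 3 (median 1.63). Of all genes 13.6% were higher there. In cluster 6 against cluster 7, 9 of the 14 were higher and none lower (median 1.20), beside 13.6% and 11.5% of all genes. Their sum had a median cell of 7741 CPM in cluster 6, 4287 CPM in cluster 7 and 2048 CPM in clusters 1 to 3, and 26 of 33 cells of cluster 6 but 3 of 20 of cluster 7 exceeded the highest endothelial cell (6132 CPM). For the S phase sum 1 cell of cluster 6 did so, and for the G2 and M phase sum none. Myc itself was at 461, 119 and 57.5 CPM in clusters 6, 7 and 1 to 3, with 10 reads in 28 of 33 and 13 of 20 cells. Ncl, nucleolin, was at 2785, 1446 and 749 CPM. Mycn stood outside this pattern, as given above. The immediate early genes Fos and Atf3, which cell handling induces, had log2 ratios of -3.53 and -3.86 against clusters 1 to 3. In that list 6 of the 11 genes were lower, beside 20.9% of all genes.

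Ctrl and aDll4-treated cells of the clusters are given as counts and levels. Clusters 6 and 7 held 22 of 239 Ctrl cells, or 9.21% (exact Clopper-Pearson 95% interval 5.86 to 13.6%), and 31 of 244 treated cells, or 12.7% (8.80 to 17.5%). The difference was 3.50 percentage points with a Newcombe interval of -2.14 to 9.16, which covers counting error only and makes no statement on the treatment, since each condition is 1 sample. The cells' titles carry library numbers that form 2 blocks. Below 20000 the shares were 7.39% and 12.4%, and above 22000 they were 14.3% and 13.6%, so the sign of the difference was not the same. Cluster 6 alone held 5.86% and 7.79%, and cluster 7 alone 3.35% and 4.92%.

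**Figure D5:**
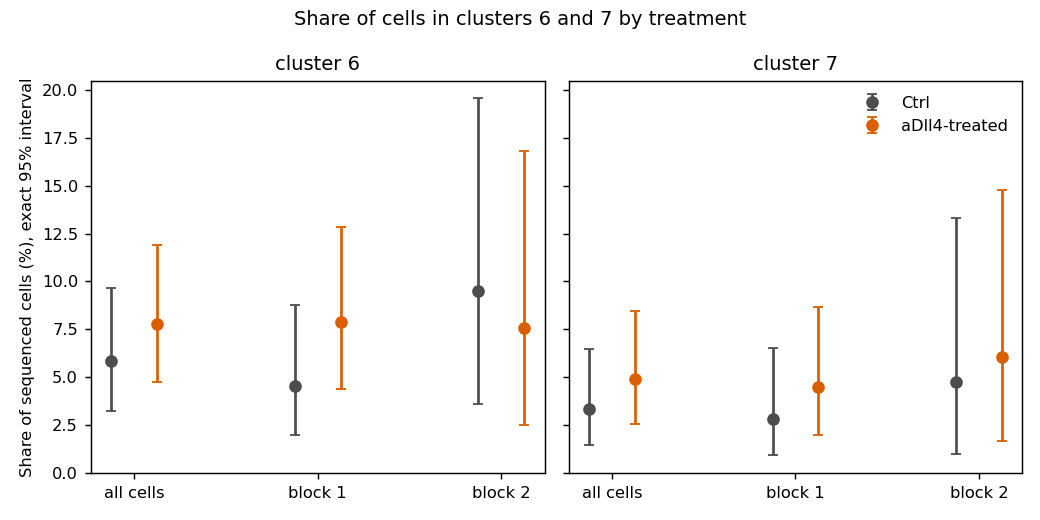
Share of all sequenced cells that fell in cluster 6 (left) and cluster 7 (right) in Ctrl and aDll4-treated cells, for all cells and within each block of library numbers, with exact 95% intervals that cover counting error only. All pairs of intervals overlap, and for cluster 6 the order of Ctrl and treated differs between the blocks.

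Levels within the clusters were compared with the same fold. In cluster 6, 14.6% (2129) of 14587 genes were higher and 7.46% (1088) lower in treated cells (median 0.069), and in cluster 7, 15.3% (2281) of 14946 were higher and 12.7% (1901) lower (median -0.041). By the mean of log2(CPM + 1) alone, 4055 were higher and 163 lower in cluster 6, so the share of calls that were higher went from 66.2% to 96.1%. Depth and the number of genes read differed in the same direction there. Ctrl cells of cluster 6 had a median of 833246 reads and 5385 genes at equal depth, treated cells 1197645 reads and 6600 genes, and 7 of 14 Ctrl against 1 of 19 treated cells had fewer than 5000 genes. Their part in the differences was not tested. The sexes of the cells were not balanced either. Among the 22 treated cells of the first block none had 10 reads of Xist and 21 had 10 reads of Y-linked genes, whereas of the 9 treated cells of the second block 8 had Xist, and 1 of these 8 also had Y-linked reads. Ctrl cells had Xist in 7 of 13 and 2 of 9 and Y-linked reads in 3 and 5.

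Of the 4 markers, Itga2b differed most in the share of cells of cluster 6 with 10 reads. There the lowest, median and highest cell had 0, 2.79 and 749 CPM in Ctrl and 23.8, 272 and 562 CPM in treated cells. It reached 10 reads in 6 of 14 Ctrl and 19 of 19 treated cells, at 67.9 CPM (exact Poisson interval 63.4 to 72.7) and 220.5 CPM (214.3 to 226.9). The levels were 73.5 and 229 CPM in the first block and 61.3 and 201.5 CPM in the second, and the ranges of single cells overlap. Shares of cells with 10 reads are not adjusted for depth or genes read, which differed between the conditions as given above. Nelfcd, a subunit of the complex that pauses RNA polymerase II, Itgb2, the beta chain of leukocyte integrins, and Atp2a3, a calcium pump of blood cells, were also named as higher in treated cells of cluster 6, with log2 ratios of 3.27, 1.20 and 1.37. Alg14, Zfp74, Cd2ap and Slc22a4 were named as lower, from -2.48 to -3.82. Klf1 in cluster 6 was at 177.9 CPM (Ctrl) and 135.1 CPM (treated), Spi1 at 130.5 and 134.4 CPM, Mpo at 95.6 and 101.3 CPM, Runx1 at 118.7 and 122.6 CPM and Gata1 at 270.1 and 298.8 CPM. Cells with 10 reads were 8 of 14 Ctrl and 15 of 19 treated for Klf1, 5 and 15 for Spi1, 4 and 7 for Mpo, 8 and 16 for Runx1 and 9 and 17 for Gata1. The order of the levels turned between the blocks for all 5 genes. In the first block Ctrl and treated cells had 203 and 119.6 CPM of Klf1, 41.6 and 112 CPM of Spi1, 146.4 and 43.9 CPM of Mpo, 49.3 and 117.6 CPM of Runx1 and 323.5 and 373 CPM of Gata1. In the second they had 148 and 168.7 CPM of Klf1, 236 and 183 CPM of Spi1, 35.4 and 226 CPM of Mpo, 200.9 and 133.6 CPM of Runx1 and 207 and 137 CPM of Gata1.

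In cluster 7, Rac2 was at 419.8 CPM over the Ctrl cells and 173.6 CPM over the treated ones, with medians of 426 and 180.3 CPM and 10 reads in 7 of 8 and 8 of 12 cells. Within blocks the levels were 509 and 280.0 CPM, and 288 and 34.6 CPM, and the ranges overlap. Pf4 was at 5237 and 8080 CPM, with lowest, median and highest cells of 0, 2136 and 16096 CPM in Ctrl and 0, 5959 and 22262 CPM in treated cells. The values were 4723 and 5018 CPM in the first block and 6003 and 12078 CPM in the second. Rhoc, a small GTPase that acts on the cytoskeleton, was named as higher in treated cells of cluster 7, at 107.8 CPM with 10 reads in 9 of 12 cells against 0.35 CPM with 10 reads in none of 8. Ikzf2, a relative of Ikzf1, followed with 10 reads in 7 of 12 and 0 of 8 cells and a log2 ratio of 4.14, and Orc4, of the replication origin complex, and Psmg4, a proteasome chaperone, had log2 ratios of 2.65 and 2.86. Ggta1, a sugar transferase, was at 4.83 CPM in treated and 70.3 CPM in Ctrl cells, with 10 reads in 1 of 12 and 7 of 8 cells. Elovl6, which lengthens fatty acids, Helq, a DNA helicase, and Dhrs11, a short-chain dehydrogenase, were lower too, with log2 ratios of -1.84, -2.60 and -3.58. Dll4 had no more than 3.89 CPM and Notch1 no more than 5.44 CPM in either condition of either cluster, and Ptprc no more than 1.22 CPM.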

How the data were processed

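Reads per gene of 483 single mouse cells were analysed. The authors deposited 1 table of whole-number counts of reads for each gene, without normalisation. Build mm10, GSNAP and HTSeq 0.6.0 are named, per the submitters' processing notes, and per the labels' protocols the libraries were Smart-seq2 with Nextera XT, which neither mark the strand nor carry molecular identifiers. No source used here names the annotation or a cell filter. All cells were used, and doublets were not called. The 46078 genes were named by Ensembl identifier (45143 had a symbol).

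Counts were summed over the cells of a group and scaled to CPM with Python 3.11.15, and edgeR 4.0.16 gave the TMM factors. Intervals are exact Poisson and Clopper-Pearson 95%, and floors are 3 counts. Reads are amplified and not independent molecules, so both cover counting error only. The scripts were tested on simulated data. The lists and members were chosen with earlier results of these data known. Named genes are the 12 highest and 12 lowest per cluster comparison by mean log2(CPM + 1), with a read in at least 25% of cells of the higher group and the same direction in both conditions and both blocks of library numbers. Within clusters the 4 highest and 4 lowest with the same direction in both blocks are named, and from each list the 4 with the largest difference. Other list members were named after their values were seen. Without strand, reads of overlapping genes cannot be told apart, which touches Tuba4a, Ramp2, Kif20a, Ccnd1 and Cdkn1c. Results of a few list members are not reported here.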

Additional observations from a re-analysis of the deposited data

Results flagged for a closer look

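Among the 8 Ctrl cells of cluster 7, the lowest cell lay far below the others in 2 of 19 values examined, with a different cell each time. The rule was Dixon's ratio, the gap to the nearest cell over the range. It gives about 1 such value in 20 by chance if values are independent and normally distributed. Values of 0 and lists that contain the single genes do not meet that, so the rate is not known here. The cells come from 1 sample, so this describes the cells. Rac2 was at 0 on the log2(CPM + 1) scale in cell 5, which had 515 reads of Coro1a and 2998 of Pf4. Pf4 was at 0 in cell 3, the cell with Kit, Myb and Klf1 reads.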

How the results depend on the processing

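Counts of genes past the fold depended most on the added CPM and on the weight of single cells. With 10 CPM added, 1023 genes were higher and 1662 lower in clusters 6 and 7 against clusters 1 to 3, and 730 and 640 in cluster 6 against cluster 7. By the mean of log2(CPM + 1), the first comparison gave 3292 higher and 1865 lower, and treated against Ctrl in cluster 6 gave 4055 and 163. In the block above 22000 alone that comparison gave 3645 and 2209. Leaving out the highest cell of each gene left 674 lower in cluster 6 and 1218 lower in cluster 7. The other 88 of 100 recomputed gene counts were within 1.5 times, including those without the cell with germ cell transcripts (1909 and 2985, then 1948 and 1703) and those without cells under 250000 reads, both added after the data were seen.

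Of 1013 recomputed list medians 7 had the other sign. The mesonephric list, resting on Krt18 (1.28 against clusters 1 to 3), was at -0.79 and -0.36 within the blocks, -0.60 with no filter and -1.17 with a filter on 5% of all cells. For cluster 6 over 7, the cytokine receptor list was at -0.026 by mean log2, and the neural crest list at 0.052 without the highest cell and 0.13 in treated cells. Of 4383 values of named genes 13 had the other sign. Krt18 was at -0.79 in the block below 20000. The other 12 are of cluster 6 over 7. Gimap6 was at -1.05 by mean log2 and -2.67 without the Cdh5 cells, which also put Dab2 at -0.032. Hba-a1 was at -0.26 in the block below 20000, and in the block above 22000 Aplnr was at -0.22, Dll4 at -0.32, Hbb-bs at -0.36 and Mecom at 1.13. Mecom was at 1.05 and Dusp1 at -0.45 in Ctrl cells, Ebf1 at 0.19 in treated cells and Stmn2 at 0.052 without the highest cell. The cause was not tested. No paired analysis was run, since no label names an embryo and cell numbers pair nothing. Depth limits genes read in few cells, and the 20 cells of cluster 7 limit every share of cells.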
